A study of Mus musculus with 5 samples.

Results

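The cyclin-dependent kinase (CDK) inhibitor genes Cdkn2a, Cdkn2b, Cdkn2c, Cdkn1a, Cdkn1b and Cdkn1c were examined for CBX2 sites. The 6 genes were taken by name, with no use of the measured values, out of 22380 protein-coding gene records of GENCODE vM1 on mm9. Each gene body was extended by 5 kb on each side, and a gene had a CBX2 site when a called peak overlapped this window by at least 1 bp. The protein CBX2, which belongs to Polycomb Repressive Complex 1 (PRC1), was immunoprecipitated from crosslinked, MNase-digested chromatin of mouse embryonic fibroblasts (MEFs). The MEFs were isolated from a mid-gestation embryo with loxP sites in the Eed gene. The EZHIP and K27M lines were made from them by lentiviral transduction with human EZHIP or with the mutant histone H3.3 K27M, so all 3 lines carried the floxed Eed alleles. For the Control of this experiment, the paper does not say whether the cells were also transduced and selected. If they were not, transduction and selection cannot be told apart from the transgene. Both proteins inhibit Polycomb Repressive Complex 2 (PRC2), and both were expressed from a vector with the EF1a promoter under puromycin selection. Each line gave 1 library and 1 list of broad peaks, with 289 peaks in Control, 255 in EZHIP and 327 in K27M, so no difference between lists has a replicate check. Peak positions hold no expression, so the fibroblast label could not be checked against marker genes. The K27R and EEDnull libraries of the series were not analysed here.

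CDK inhibitors hold the cell cycle in G1. The INK4 proteins, encoded by Cdkn2a (p16INK4A), Cdkn2b (p15INK4B) and Cdkn2c (p18INK4C), bind CDK4 and CDK6 and keep them from the D-type cyclins, whereas the CIP/KIP proteins, encoded by Cdkn1a (p21), Cdkn1b (p27) and Cdkn1c (p57), bind cyclin-CDK complexes. Cdkn2a also encodes p19ARF, from an upstream promoter and another reading frame, which stabilizes p53 by binding MDM2. The Cdkn2a-Cdkn2b locus is a textbook target of Polycomb repression in fibroblasts: PRC2 trimethylates lysine 27 of histone H3, and the chromodomain of CBX proteins in PRC1 can bind that mark. Cdkn1c is imprinted and is expressed mainly from the maternal allele.

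No CDK inhibitor gene had a CBX2 peak in its window in any list. The count was 0 of 6 in each of the Control, EZHIP and K27M lists. Among all protein-coding gene records, 1.49% had a peak in the same window in Control (333 records), 1.44% in EZHIP (322) and 1.78% in K27M (398). CBX2 peaks were therefore rare at genes in general, and a count of 0 among 6 genes is near this background and is no result particular to CDK inhibitors. The lists did hold peaks at genes with well-known Polycomb sites, since 21 of the 39 Hox genes had a peak in Control, 23 in EZHIP and 19 in K27M. Neighbouring Hox genes can share a broad peak, so these are counts of genes and not of separate sites. These lists therefore give no called CBX2 site by which the 6 genes could be described as Polycomb targets in these cells. They cover CBX2 alone. The paper also profiled RING1B, another PRC1 subunit, and the PRC2 mark H3K27me3 in these MEFs, and neither was analysed here. A lack of CBX2 peaks is thus not a lack of Polycomb. The files hold peak positions without heights or reads, so a gene without a peak may have had CBX2 below the calling threshold, and no level can be given for it.

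**Figure D1:**
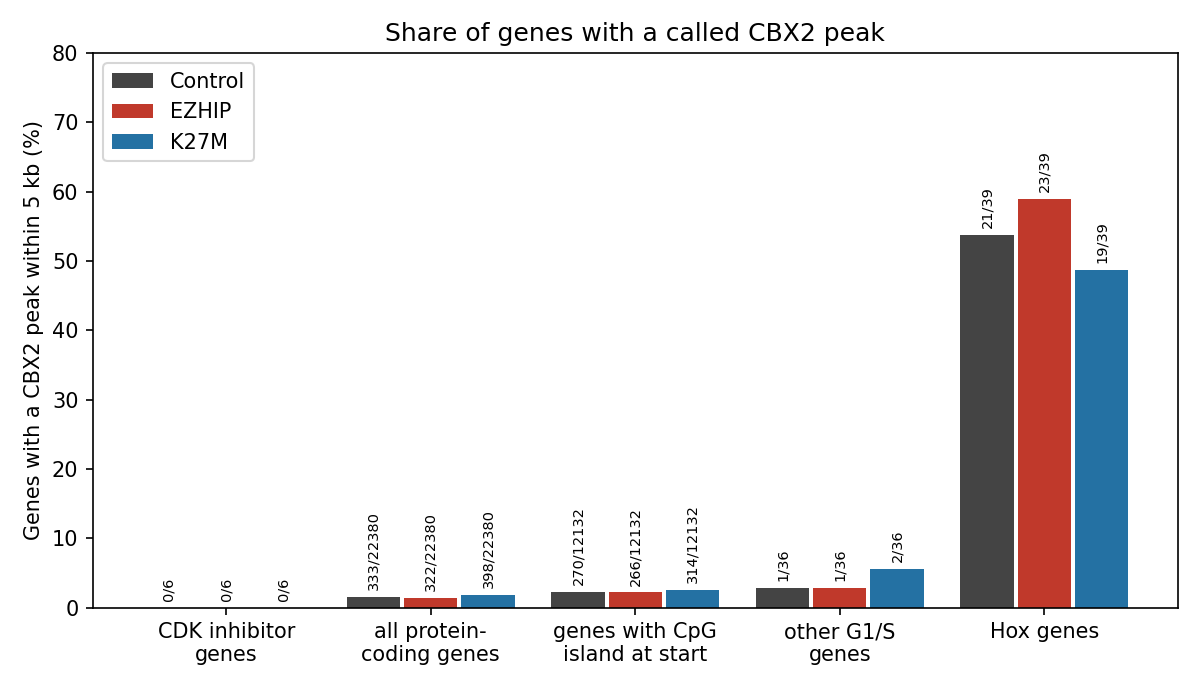
Percentage of genes with a CBX2 peak within 5 kb of the gene body (y axis) in the Control, EZHIP and K27M lists (bars), with the number of genes printed over each bar. The CDK inhibitor genes stand at 0 of 6 in each list, beside 1.44 to 1.78% of all protein-coding gene records and 48.7 to 59.0% of Hox genes.

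The Cdkn2a-Cdkn2b locus lies on chromosome 4 (mm9, 88920377 to 88956941, 36.6 kb). Cdkn2a (ENSMUSG00000044303.5) spans 88920377 to 88940557 and Cdkn2b (ENSMUSG00000073802.4) spans 88952198 to 88956941, both on the minus strand and 11.6 kb apart. The p16 transcript starts at 88928096, within the p19ARF transcription unit, and the p19ARF start at 88940557 lies 12.5 kb upstream of it. The nearest peak to Cdkn2a was 10.4 Mb away in Control and in K27M. It contained the start of Foxd3, a forkhead gene of the neural crest. In EZHIP the nearest peak was 338 kb away, and it lay 370 kb from Cdkn2b. For Cdkn2b the Control and K27M distances were again 10.4 Mb. The EZHIP list thus differed from the other lists at this locus by 1 peak on the Mtap side of Cdkn2a.

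This EZHIP peak covered 4000 bp of chromosome 4 (88578601 to 88582600) and overlapped no annotated gene. Mir31, a microRNA gene, lay 22 kb from it, and the nearest protein-coding gene, the interferon gene Ifne, lay 52.5 kb away. It held no CpG island window and no multi-copy sequence among its sampled 32-mers, and its G+C content was 37.4%. Of the EZHIP peaks, 24.3% were narrower. In the lists without it the Cdkn2a-Cdkn2b locus lay in a long stretch with no peak, of 37.6 Mb in Control and 53 Mb in K27M, against 10.7 Mb in EZHIP. The K27M stretch was the 2nd longest of 307 gaps between neighbouring peaks of that list, and the Control stretch was the 10th longest of 269. The median gaps of the Control, EZHIP and K27M lists were 2.78, 4.23 and 3.09 Mb. A long gap is more likely than a short one to hold a given gene, so these ranks do not set the locus apart. Gene records closer to a peak than Cdkn2a made up 77.1% in Control, 8.59% in EZHIP and 81.5% in K27M. For Cdkn2b they made up 77%, 9.28% and 81.5% in the same order.

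The starts of the locus are shown with the 250 bases upstream of each, read 5′ to 3′ on the strand of the gene from NCBIM37 (the assembly of mm9), with CG dinucleotides in capitals, because CpG islands are the sequences at which PRC1 and PRC2 are commonly recruited. The p19ARF start is dense in CG and the p16 start is not. The EZHIP peak is shown by its 250 bases with the most CG.

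Cdkn2a, p16 start, chr4:88928097-88928346, minus strand: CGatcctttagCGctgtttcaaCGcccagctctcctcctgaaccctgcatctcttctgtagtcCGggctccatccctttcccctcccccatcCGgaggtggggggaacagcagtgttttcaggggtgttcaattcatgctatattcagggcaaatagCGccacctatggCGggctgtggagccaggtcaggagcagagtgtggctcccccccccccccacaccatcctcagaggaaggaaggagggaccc

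Cdkn2a, p19ARF start, chr4:88940558-88940807, minus strand: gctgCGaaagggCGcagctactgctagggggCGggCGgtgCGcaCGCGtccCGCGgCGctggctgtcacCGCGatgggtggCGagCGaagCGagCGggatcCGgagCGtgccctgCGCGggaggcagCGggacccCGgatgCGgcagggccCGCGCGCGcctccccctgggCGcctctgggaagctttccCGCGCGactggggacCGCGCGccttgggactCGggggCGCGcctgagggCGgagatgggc

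Cdkn2b start, chr4:88956942-88957191, minus strand: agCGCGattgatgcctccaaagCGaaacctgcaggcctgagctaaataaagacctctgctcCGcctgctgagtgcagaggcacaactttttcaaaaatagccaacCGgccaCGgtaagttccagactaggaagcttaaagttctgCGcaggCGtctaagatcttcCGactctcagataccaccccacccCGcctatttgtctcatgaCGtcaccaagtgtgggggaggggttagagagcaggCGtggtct

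EZHIP peak nearest to Cdkn2a, chr4:88581261-88581510, plus strand: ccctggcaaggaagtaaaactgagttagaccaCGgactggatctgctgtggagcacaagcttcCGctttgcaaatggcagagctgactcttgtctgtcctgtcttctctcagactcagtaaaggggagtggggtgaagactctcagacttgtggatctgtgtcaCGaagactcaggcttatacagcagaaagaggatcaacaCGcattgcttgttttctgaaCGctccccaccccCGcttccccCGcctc

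The stretch upstream of the p19ARF start held 38 CG dinucleotides, more than 97.9% of 22375 protein-coding gene records. The p16 stretch held 7, a number exceeding 44.2% of them, and the Cdkn2b stretch held 12. The median over all records was 8, and over the records with a peak it was 12, 12 and 13 for the Control, EZHIP and K27M lists. The Cdkn2b start thus had as many CG as the median gene with a Control peak, and the p19ARF start had more, yet neither had a peak. The densest stretch of the EZHIP peak held 7. Among the other CDK inhibitor genes, the same stretch held 4 CG at Cdkn2c, 19 at Cdkn1a (at the start 29230717) and 28 at Cdkn1b, so the genes ranged from below to above the median of all records.

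Cdkn2c (ENSMUSG00000028551.8), also on chromosome 4 (109333481 to 109339794, minus strand), was the CDK inhibitor gene closest to a peak in every list. Its distance was 308 kb in both Control and EZHIP and 306 kb in K27M, and from 8 to 10.8% of protein-coding gene records lay closer to a peak. The site contained the start of Dmrta2, a doublesex-related transcription factor gene of the developing forebrain, and Faf1 lies between Dmrta2 and Cdkn2c. The Dmrta2 peak measured 11 kb in Control, and it was wider in EZHIP (14.4 kb) and in K27M (17.6 kb). Its edge facing Cdkn2c was the same bin in Control and EZHIP and lay 2200 bp closer to the gene in K27M.

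Cdkn1a (ENSMUSG00000023067.7) spans 29227924 to 29237667 on chromosome 17 (plus strand). The nearest peak was 2.24 Mb away in every list, and 34.7 to 44.2% of gene records lay closer to one. It contained the start of Nkx2-5, a homeobox gene of heart development. This peak measured 13.4 kb in Control, and it too was wider in EZHIP (16.6 kb) and in K27M (20.2 kb).

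Cdkn1b (ENSMUSG00000003031.8) spans 134870419 to 134875531 on chromosome 6 (plus strand). Its nearest peak, 7.76 Mb away in every list, lay upstream of another gene of the same pathway, Ccnd2, which encodes cyclin D2. No list had a peak between this site and the end of the chromosome, a stretch of 22.4 Mb. Of all gene records, 69.2 to 74.8% lay closer to a peak than Cdkn1b did.

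Cdkn1c (ENSMUSG00000037664.6) spans 150644255 to 150646955 on chromosome 7 (minus strand), 1.88 Mb from the chromosome end. It was the most distant of the 6 genes, with its nearest peak 11.9 Mb away in every list. That peak lay at Hmx3 and Hmx2, adjacent homeobox genes of the inner ear and hypothalamus. Chromosome 7 held few peaks in these lists, 3 in Control, 4 in EZHIP and 3 in K27M, which is 0.020, 0.026 and 0.020 per Mb against 0.11, 0.094 and 0.12 per Mb over the genome. The distance of Cdkn1c goes with this low number of peaks, whose part in it was not tested. Whether the lists used here hold every peak called on chromosome 7 is not known, so the 11.9 Mb and the lack of a peak at Cdkn1c hold for these lists as they stand.

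**Figure D2:**
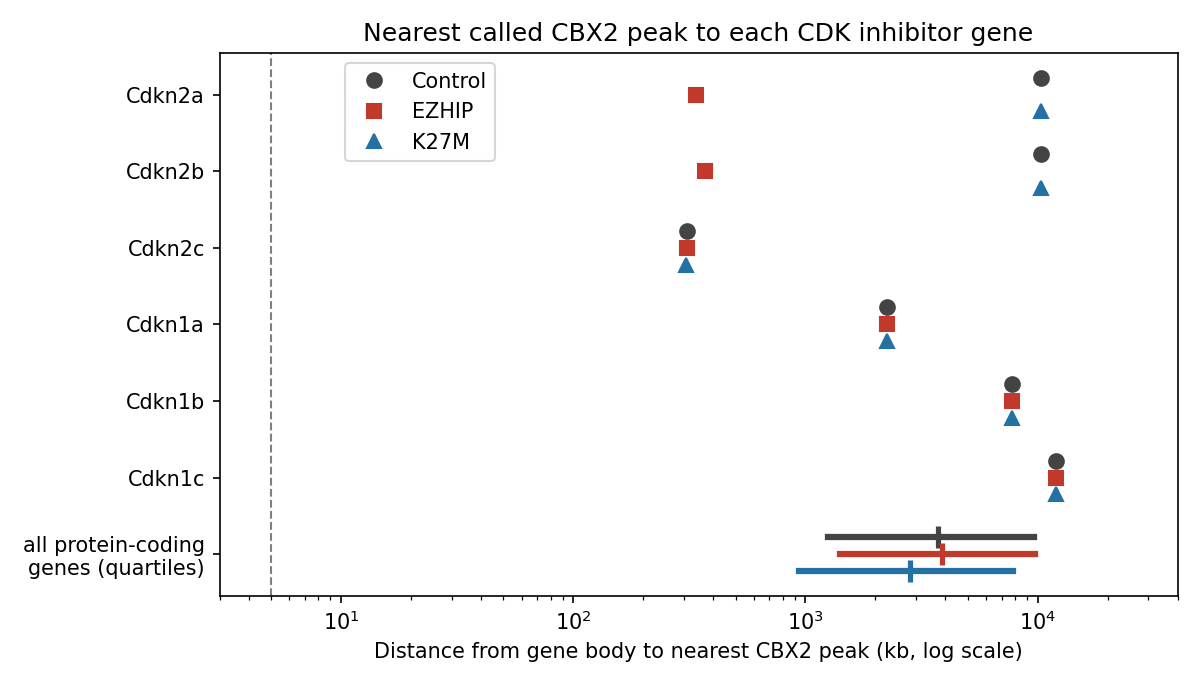
Distance in kb from each CDK inhibitor gene body to the nearest CBX2 peak (log x axis) in the Control, EZHIP and K27M lists (points), above the median (tick) and middle 50% (bar) of all protein-coding gene records. The dashed line marks the 5 kb window. Every point lies at 306 kb or more, and the lists separate at Cdkn2a and Cdkn2b, where the EZHIP points lie at 338 and 370 kb and the others at 10.4 Mb.

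Across the 6 genes, the median distance was 9.06 Mb in both Control and K27M and 1.30 Mb in EZHIP. The median over all gene records on chromosomes with a peak was 3.71, 3.86 and 2.82 Mb for the Control, EZHIP and K27M lists. The lower EZHIP median of the 6 genes comes from the peak near Mir31, which sets the distance of both Cdkn2a and Cdkn2b, and these are not independent. With peaks of at least 5000 bp, which leaves that peak out, the EZHIP distances were 10377044 bp for Cdkn2a and 10360660 bp for Cdkn2b. Of 10 neighbouring protein-coding genes, 0 had a peak in their windows in each list, which is near the background of 1.44 to 1.78% and is no result particular to these loci. The closest of them was Faf1, 11.4 kb from the Dmrta2 peak in Control and EZHIP and 9.24 kb in K27M.

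The starts of the CDK inhibitor genes were then compared by their CpG islands, a feature that the choice of genes did not use. An island was a run of 500 bp windows, placed every 50 bp, in which G+C made up at least 55% and CG was found at 0.65 or more of the number its base composition gives, within 1000 bp of the annotated 5′ end of the gene. By this measure 54.2% of all gene records had an island, and 5 of the 6 genes had one: 1900 bp at Cdkn2a (at the p19ARF start), 1100 bp at Cdkn2b, 1900 bp at Cdkn2c, 1650 bp at Cdkn1b and 3050 bp at Cdkn1c. The p16 start of Cdkn2a had none by this measure. By a looser rule, of 200 bp windows with at least 50% G+C and a CG ratio of 0.6, it had 300 bp. The 5′ end of Cdkn1a had none by either rule, but by the main rule an island of 2450 bp lay at the start of another of its transcripts at 29230717.

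Among the 12132 gene records with an island at the start, 2.23% had a peak in Control, 2.19% in EZHIP and 2.59% in K27M. From islands of 1000 bp on, the share was higher in each longer class. It was 1.31%, 1.31% and 1.40% in Control, EZHIP and K27M for islands of 1000 to 1450 bp, the class of Cdkn2b, and the shortest islands, under 1000 bp, had 1.63%, 1.60% and 1.63%. For islands of 1500 to 1950 bp, the class of Cdkn2a, Cdkn2c and Cdkn1b, it was 2.77%, 2.77% and 3.63% in the same order. For islands of at least 3000 bp, the class of Cdkn1c, it was 16.4%, 15.7% and 21.4% of 140 records. Most genes of each class had no peak, as was the case for the CDK inhibitor genes.

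**Figure D3:**
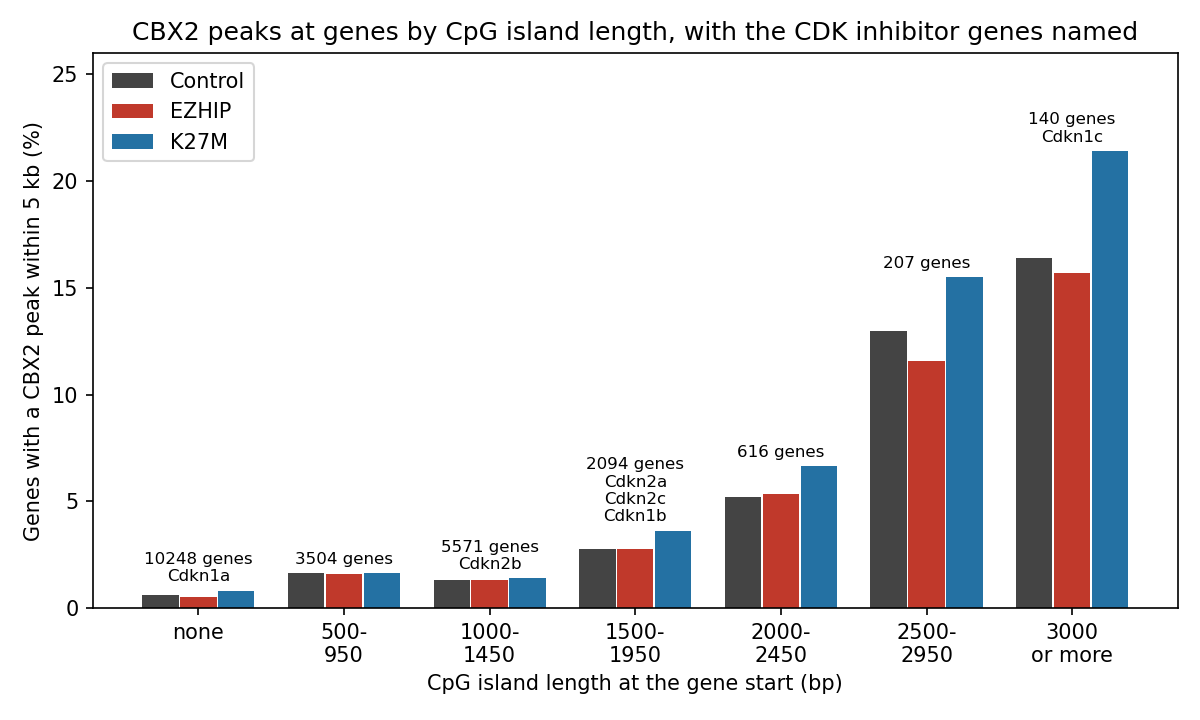
Percentage of protein-coding gene records with a CBX2 peak within 5 kb (y axis) by the length of the CpG island at the gene start in bp (x axis), in the Control, EZHIP and K27M lists (bars). The number of records and the CDK inhibitor genes of each class are printed above the bars. The percentage is under 1 without an island and reaches 15.7 to 21.4% in the class that holds Cdkn1c.

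The upstream sequence of Foxd3, whose start lay in a peak in every list, is shown in the same way for comparison with the Cdkn2a and Cdkn2b starts. It held 21 CG dinucleotides, fewer than the 38 of the p19ARF start and more than the 12 of Cdkn2b, which had no peak.

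Foxd3 start, chr4:99322740-99322989, plus strand: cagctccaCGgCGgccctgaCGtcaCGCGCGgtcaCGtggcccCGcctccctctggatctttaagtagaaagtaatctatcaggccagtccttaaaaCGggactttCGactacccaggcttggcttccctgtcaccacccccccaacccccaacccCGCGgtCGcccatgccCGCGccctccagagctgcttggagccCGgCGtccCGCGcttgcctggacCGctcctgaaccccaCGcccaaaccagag

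The other genes of the G1/S pathway were examined from a list of 36. A peak lay in the window of 1 gene in Control, 1 in EZHIP and 2 in K27M (2.78, 2.78 and 5.56%, against the background of 1.49, 1.44 and 1.78%). By role, the list held 9 cyclins, of which 1 had a peak in each list, and 5 genes of the p53 axis, of which 1 had a peak in K27M and none in the other lists. None of the 2 remaining CDK inhibitors (Cdkn2d and Cdkn3), 7 kinases and phosphatases, 3 pocket proteins or 10 E2F and DP genes had one. The genes with peaks were Ccnd2 and Trp73. K27M was the longest list, and when each list was held to its 255 widest peaks, 0 pathway genes had a peak in K27M, so both its calls were lost. Both were narrow peaks, and only the narrowest are removed by that setting, so it cannot show whether these calls depend on list length.

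Ccnd2 encodes cyclin D2, the partner of CDK4 and CDK6 that the INK4 proteins displace. It spans 127075797 to 127101066 on chromosome 6 (minus strand), and the peak lay upstream of its start, 3935 bp away in Control and closer in EZHIP (2735 bp) and K27M (2535 bp). The widths of the Control, EZHIP and K27M peaks were 3000, 4200 and 4400 bp. All lists ended it at the same base, 127108000, and the lists differed at the edge facing Ccnd2, by 1200 bp in EZHIP and 1400 bp in K27M from Control. The peak overlapped the long noncoding RNA gene 9330179D12Rik, which begins within the 5′ end of Ccnd2 and runs away from it on the opposite strand, and contained no start of a protein-coding gene. It was a narrow peak in each list, with 16.6% of Control, 26.7% of EZHIP and 21.1% of K27M peaks narrower. Within the Control peak, the 250 bases with the most CG held 20 of them and lay at its edge facing Ccnd2. The further stretch covered by the EZHIP and K27M peaks on that side was not searched.

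Peak upstream of Ccnd2, chr6:127105001-127105250, plus strand: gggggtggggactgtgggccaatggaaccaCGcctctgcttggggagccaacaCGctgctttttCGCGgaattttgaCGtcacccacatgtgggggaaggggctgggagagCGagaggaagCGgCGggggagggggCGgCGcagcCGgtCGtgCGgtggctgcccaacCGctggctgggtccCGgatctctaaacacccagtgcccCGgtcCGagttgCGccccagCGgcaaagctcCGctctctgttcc

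Trp73 encodes p73, a member of the p53 family. It spans 153430358 to 153514317 on chromosome 4 (minus strand), and a K27M peak of 4000 bp (153512001 to 153516000) contained its start. No Control or EZHIP peak lay in its window, and the nearest were 6.62 Mb and 14.0 Mb away. The K27M peak was not among the 255 widest of its list. That setting removes only the narrowest peaks, and most from K27M, whose median width was 9600 bp against 7400 bp in Control. Upstream of Ccnd2 it dropped the K27M peak of 4400 bp and kept the Control peak of 3000 bp. It therefore cannot show whether the difference at Trp73 depends on list length, and this difference has no replicate check. An island of 1850 bp lay at this start, whose 250 upstream bases held 18 CG dinucleotides.

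Trp73 start, chr4:153514318-153514567, minus strand: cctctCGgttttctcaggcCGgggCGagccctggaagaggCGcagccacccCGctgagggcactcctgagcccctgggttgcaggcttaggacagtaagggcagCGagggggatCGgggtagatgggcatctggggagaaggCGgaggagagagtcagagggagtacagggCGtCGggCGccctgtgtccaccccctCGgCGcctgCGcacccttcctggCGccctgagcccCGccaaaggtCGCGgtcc

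Finally, the widths of the 5 sites nearest to CDK inhibitor genes in Control were compared between lists. Both comparisons share the Control library. In EZHIP the Foxd3 peak was narrower than in Control (10.2 against 12.6 kb, log2 ratio -0.30) and the Hmx peak differed little (15.4 against 15.8 kb, -0.04), both within the middle 50% over all matched peaks (-0.43 to 0.15). The EZHIP peaks at Dmrta2 (0.39), Nkx2-5 (0.31) and Ccnd2 (0.49) were wider, and each lay above the upper quartile of 0.15 over the 192 Control peaks with an EZHIP counterpart, whose median was -0.09. In K27M all 5 peaks were wider than in Control, with log2 ratios of 0.15 at Foxd3, 0.68 at Dmrta2, 0.59 at Nkx2-5, 0.55 at Ccnd2 and 0.17 at Hmx3 and Hmx2. These lay within the middle 50% over the 229 Control peaks with a K27M counterpart (0.02 to 0.94, median 0.32). At Hmx3 and Hmx2, the Control and K27M peaks contained both gene starts, and the EZHIP peak began 1600 bp later and contained the Hmx2 start without that of Hmx3.

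**Figure D4:**
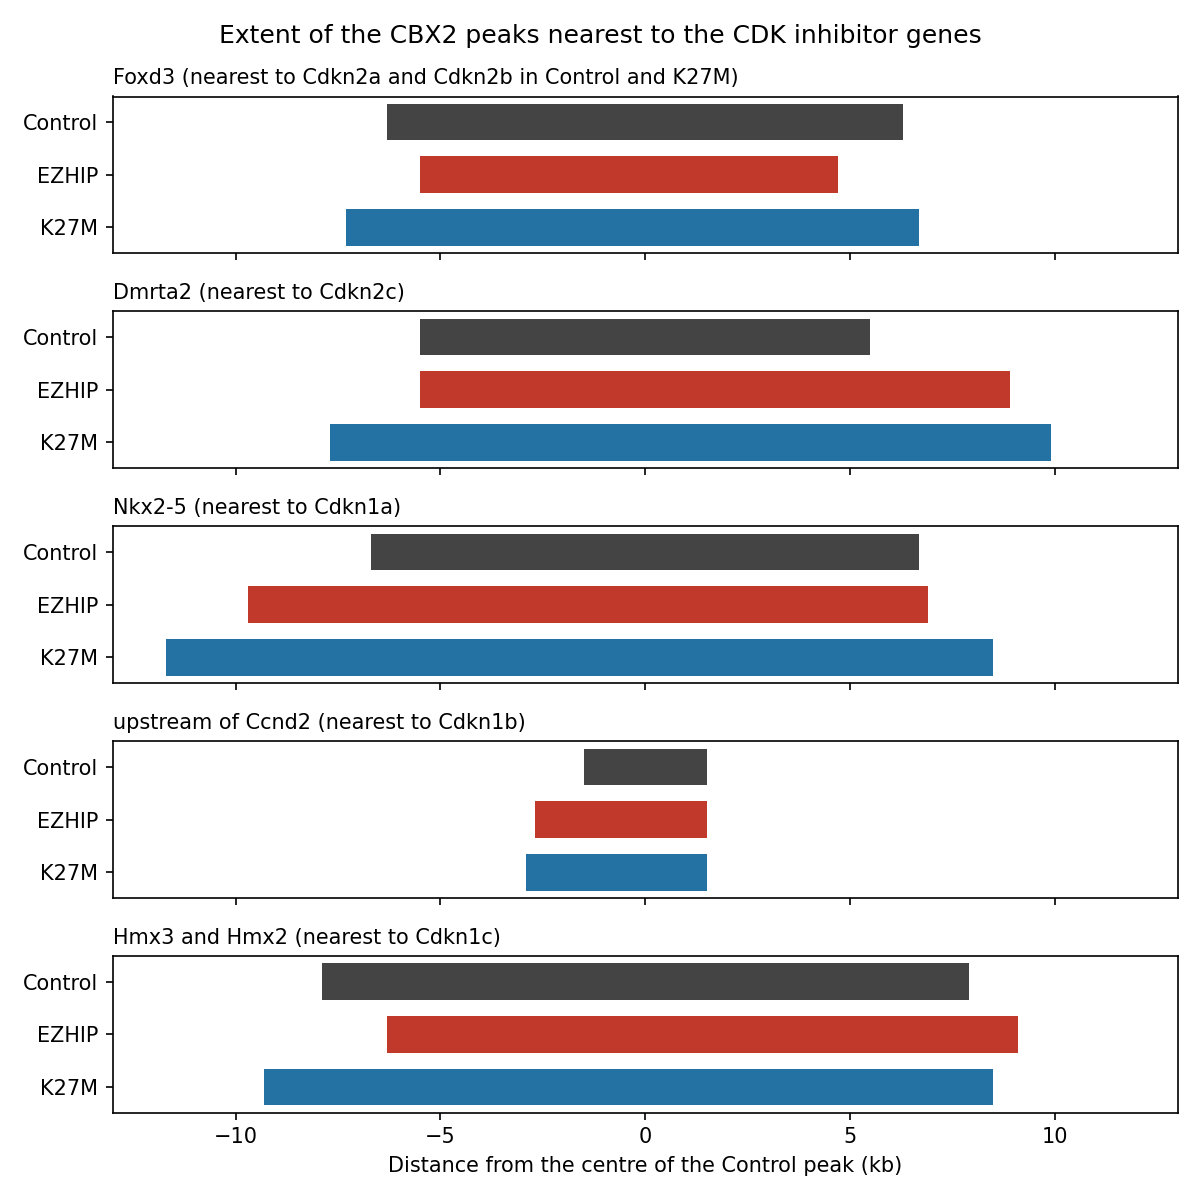
Extent of the 5 CBX2 peaks nearest to CDK inhibitor genes in Control, in kb from the centre of the Control peak (x axis), with 1 bar per list. The K27M bars are wider than the Control bars at every site, from 4.40 kb upstream of Ccnd2 to 20.2 kb at Nkx2-5, and the EZHIP bars are narrower at Foxd3 and at Hmx3 and Hmx2.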

How the data were processed

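Peak lists of 3 CBX2 ChIP-Seq libraries were used, 1 each for Control, EZHIP and K27M, grouped by their labels. Per the methods of the study and the submitters' processing notes, the authors aligned reads to mm9 and a spike-in genome with Bowtie 1.0.0 and called broad peaks with MOSAiCS-HMM. The deposited lists hold the start and end of each peak on 200 bp bins and no score. All 871 peaks ended within the chromosomes of NCBIM37. Read depth is unknown, and the number and width of peaks can change with it. A read matching several positions is placed at 1 of them by default. Multi-copy sequence was therefore measured, from 32-mers sampled every 100 bp of a peak, and a peak was multi-copy when at least 50% of them occurred more than once in the genome.

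Genes came from GENCODE vM1 (22380 protein-coding records, 22238 symbols). Distances ran from the gene body to the nearest edge of a peak, over 22350 records on chromosomes with a peak. Python 3.11.15, numpy 2.4.6 and pysam 0.24.0 were used. The overlap and distance steps were tested on simulated peaks with known positions. With 1 library per group no test was made. The named genes were the 6 CDK inhibitor genes, pathway genes with a peak, genes at or nearest to the closest peaks, and neighbouring genes. The genes, lists and island rule were chosen with earlier results of these data known. Mir31 was named after its position was seen. Upstream CG numbers are given for 5 of the 6 CDK inhibitor genes, and the upstream sequence of the other gene is not reported here.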

Additional observations from a re-analysis of the deposited data

Results flagged for a closer look

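At 2 of the sites nearest to CDK inhibitor genes, the peak width moved in opposite directions from Control in the EZHIP and K27M lists. The peak at Foxd3, the closest Control peak to Cdkn2a and Cdkn2b, differed from Control by -2400 bp in EZHIP and by 1400 bp in K27M. The peak at Hmx3 and Hmx2, the closest to Cdkn1c, differed by -400 bp in EZHIP and by 2000 bp in K27M. Over all matched peaks the median log2 width ratio to Control was -0.09 in EZHIP and 0.32 in K27M, so the medians also differed in sign. The middle 50% held both signs in EZHIP (-0.43 to 0.15), which thus had no common direction. In K27M it was positive throughout (0.02 to 0.94). Both sites lay within the middle 50% of each comparison. With 1 library per group, the difference was not tested, and -400 bp is a move of the width by 2 bins.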

How the results depend on the processing

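Over 56 results and 11 settings, all planned, 246 alternative values were computed. A value counted as unmoved within 1.5 times of that reported. Of them, 223 were unmoved, 23 moved and 0 changed sign. Only the 20 alternative values of width differences from Control carried a sign that could change. Joining peaks closer than 10000 bp left every value as it was. The authors' peak calling used a maximum gap of the same size, so the unmoved values under that setting say nothing of stability. The count of CDK inhibitor genes with a peak was 0 in each list under every setting. This says nothing of its stability, since most settings can only narrow the window or shorten the list, and with every gene at least 306 kb from a peak, windows extended by 20 or 50 kb could not reach one. With peaks of at least 5000 bp, the distance of Cdkn2a in EZHIP was 10377044 bp and that of Cdkn2b 10360660 bp, and that of Cdkn1b was 51196619, 51195619 and 14248619 bp in Control, EZHIP and K27M, since the peak upstream of Ccnd2 falls below that width. When every list was held to its 255 widest peaks, the distance of Cdkn1b in K27M was 12432419 bp. Pathway genes with a peak numbered 0, 0 and 1 in Control, EZHIP and K27M with the gene body alone, 0 in each list with peaks of at least 5000 bp, 0 in Control when at least 50% of the peak had to lie in the window, 2 in EZHIP with windows extended by 50 kb (E2f2 joined Ccnd2), and 0 in K27M with its 255 widest peaks. The remaining 8 moved values were the background counts with windows of 50 kb and the widths of nearest peaks under the 5000 bp minimum. A width at a CDK inhibitor gene could not be given, as none had a peak. No paired analysis was possible because the lines had 1 library apiece, which also leaves no replicate to drop. Unknown read depth limits every statement on the lack of a peak.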

Other observations

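A pair of paralogous transcription factor genes lies near the INK4 genes, Dmrta1 above Cdkn2b and Dmrta2 beyond Faf1 from Cdkn2c. This was noticed after the distances were seen. Dmrta2 had a peak over its start in every list. Dmrta1 had none in its window, and its nearest peak was 0.764 Mb away in EZHIP, against 9.96 Mb in Control and 9.95 Mb in K27M. The EZHIP peak is the same narrow peak near Mir31 that sets the distances of Cdkn2a and Cdkn2b. It is therefore no further difference between the lists.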
